A study of Mus musculus with 12 samples.

Results

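The 10 regulators of neuronal splicing and RNA binding were followed across mouse medulloblastomas (MBs), cerebellar granule neural progenitors (CGNPs) and whole cerebellum (WC). The 10 genes were Ptbp1, Ptbp2, Nova1, Nova2, Rbfox1, Rbfox2, Srrm4, Elavl2, Elavl3 and Elavl4, out of 18193 genes that the array table yields. They were chosen by name and family, and their values were read from 31 of 45037 probe sets, each paired with 1 member alone. A gene value was the mean log2 level of its probe sets without the suffix s or x, which left 28 of the 31.

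Total RNA was hybridized to Affymetrix mouse expression arrays, 1 array per mouse, from 8 MBs, 2 CGNP samples and 2 WC samples. The MBs came from Nestin-Cre p53-/- mice that also lost Xrcc4, a factor of canonical non-homologous end-joining, in nestin-expressing neural progenitors. The Xrcc4 genotype was c/- in 6 of these mice and c/c in 2 (MB_706 and MB_1206). CGNP and WC were labelled normal tissue, and the study describes them as age-matched controls of the same genotype, while the labels give neither genotype nor age. The labels call the MB samples tumor tissue, whereas the study's text also speaks of MB cells and lists 6 of the 8 tumors among its cultured MB cells. Loss of p53 was shared by all 8 MBs, and nothing in the labels gives an RNA extraction or hybridization batch.

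These proteins bind RNA and set which exons and which transcripts a maturing neuron keeps. PTBP1 is the polypyrimidine tract binding protein of progenitors and non-neuronal cells, where it holds neuronal exons silent and promotes skipping of an exon of Ptbp2, after which the Ptbp2 transcript is degraded. As neurons mature, PTBP1 gives way to its relative PTBP2, and NOVA, RBFOX, SRRM4 and the neuronal ELAVL proteins take up the neuronal splicing and stability programs. Granule neurons of the cerebellum arise from progenitors that divide under Sonic Hedgehog signaling, and these progenitors are a known source of MB.

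The promoters of Ptbp1 and Ptbp2 are printed because the results turn on this pair. Each is the stretch of 250 bases before a transcript start of the gene in RefSeq (build GRCm38.p6), written from 5' to 3' on the strand of the gene. Ptbp1 lies at chr10:79854182-79854431 (plus strand) and Ptbp2 at chr3:119783389-119783638 (minus strand). The Ptbp1 window ends just before the first base of the gene, 79854432, whereas the Ptbp2 window lies inside the span of its gene, which RefSeq sets from 119718741 to 119784647, and so belongs to an internal start.
Ptbp1: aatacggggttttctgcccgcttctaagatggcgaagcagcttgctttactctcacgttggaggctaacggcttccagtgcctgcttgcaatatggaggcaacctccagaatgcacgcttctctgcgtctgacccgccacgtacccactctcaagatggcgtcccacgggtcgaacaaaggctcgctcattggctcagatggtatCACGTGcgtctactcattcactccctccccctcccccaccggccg
Ptbp2: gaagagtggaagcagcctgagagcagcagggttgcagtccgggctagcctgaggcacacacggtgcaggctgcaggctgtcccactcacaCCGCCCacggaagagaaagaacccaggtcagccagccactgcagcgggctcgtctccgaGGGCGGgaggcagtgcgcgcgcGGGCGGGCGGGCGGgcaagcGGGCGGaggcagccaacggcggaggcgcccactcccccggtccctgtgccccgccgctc
Capitals mark the E-box CACGTG and the GC box GGGCGG, searched on both strands, and neighboring GC boxes overlap. Ptbp1 held 1 E-box and no GC box, and Ptbp2 held 6 GC boxes and no E-box. Of 32851 promoter windows of the same length, 6.02% held an E-box of these letters and 32.7% a GC box. The table used held windows for 9 of the 10 members, 18 windows in all, and among them an E-box was present at Ptbp1 alone. GC boxes were also present in windows of Nova2, Elavl2 and Elavl3. A match of letters is a description and does not show a bound site.

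The samples differed widely in cell make-up, by markers listed from textbook knowledge. Markers of granule progenitors had a mean level of 9.64 to 10.37 on the log2 scale in MBs, 6.25 to 6.30 in CGNPs and 4.14 to 4.22 in WC, and markers of dividing cells ran in the same order (9.82 to 10.48, 6.30 to 6.66 and 3.97 to 4.15 in MBs, CGNPs and WC). These are means over a list, and Gli1 and Gli2 were lower in CGNPs (2.30 and 6.12) than in WC (3.50 and 6.73). The remaining progenitor markers kept the order by their means. Atoh1, the transcription factor that defines these progenitors, averaged 11.95 in MBs, 5.95 in CGNPs and 2.76 in WC. The CGNP samples thus carried less of their own defining markers than the MBs, and more of the general neuronal markers than WC (11.01 to 11.04 in CGNPs, 10.24 to 10.28 in WC). MBs had a lower mean of those neuronal markers, at 7.27 to 8.41. Single neuronal markers went the other way. Map2 and Tubb3 were higher in MBs (7.31 and 10.62) than in WC (6.40 and 9.28), and Map2 was 7.27 in CGNPs. Snap25, Nefm and Syp had lower means in CGNPs (10.29, 10.47 and 10.56) than in WC (11.35, 10.74 and 10.58). Markers of mature granule neurons and of Purkinje cells were high in WC alone (11.12 to 11.26 and 11.16 to 11.29). Microglial markers stood at 6.001 to 7.34 in MBs, 3.26 to 4.22 in CGNPs and 5.20 to 5.28 in WC, and mesenchymal markers at 3.03 to 6.41 in MBs, 6.97 to 7.19 in CGNPs and 4.43 to 4.63 in WC. In CGNPs, 3 of 6 endothelial and 1 of 10 microglial markers lay at the floor of the values. The signal ratio of 3' to 5' control probe sets, an index of RNA integrity, was 2.93 on the log2 scale in tumor MB_706 and 0.559 to 0.816 in the remaining MBs, against 0.154 to 0.523 in CGNPs and WC. In bulk RNA, fewer cells of a type and less RNA per cell cannot be told apart, which holds for every result here.

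Ptbp1 was higher in MBs than in both normal tissues, and higher in CGNPs than in WC. Its gene value ran from 6.06 to 6.44 in the 8 MBs, with a median of 6.25, and was 5.24 and 5.25 in the 2 CGNP samples and 4.59 and 4.33 in the 2 WC samples. The 3 groups did not overlap, and the values fell in the order MB, CGNP, WC. The difference was 1.005 between MBs and CGNPs (standard error 0.103, adjusted p = 3.95e-05 in limma), or 2.01-fold, where a log2 difference of 1 is a fold of 2. Between MBs and WC it was 1.79 (adjusted p = 4.10e-07 in limma), and between CGNPs and WC 0.79 (adjusted p = 0.0014 in limma, but 0.101 by the methods' t-test after adjustment). Against the 4 normal samples together, Ptbp1 was higher by 1.40 (adjusted p = 6.75e-05 in limma).

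The signal of Ptbp1 came mainly from 1 of its 3 probe sets. Probe set 1424874_a_at ran from 10.65 to 11.21 in MBs, with a median of 11, and was 8.08 and 8.16 in CGNPs and 7.33 and 7.20 in WC. Every MB lay more than 2 log2 units above every normal sample. It was 7.07-fold higher in MBs than in CGNPs (log2 difference 2.82, adjusted p = 9.34e-07 in limma on probe sets) and 12.8-fold higher than in WC (3.67, adjusted p = 6.20e-08). The other Ptbp1 probe sets were dim. Probe set 1450443_at averaged 4.12 in MBs, 4.02 in CGNPs and 3.49 in WC and held the same value on 7 of the 12 arrays, and 1458284_at averaged 3.69, 3.59 and 2.61 in MBs, CGNPs and WC. The gene value of Ptbp1, a mean over all 3, thus gives a smaller difference than its bright probe set.

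Ptbp2, the neuronal relative of Ptbp1, was lower in MBs by its gene value, but its 2 probe sets moved apart. The gene value ran from 8.74 to 9.46 in MBs, with a median of 9.07, and was 10.05 and 9.98 in CGNPs and 9.77 and 9.81 in WC. No MB reached a normal sample. The difference was -0.93 against CGNPs (standard error 0.150, adjusted p = 7.91e-04 in limma), -0.70 against WC (adjusted p = 0.0033) and -0.81 against the 4 normal samples together (adjusted p = 2.75e-04). CGNPs and WC differed by 0.22 (adjusted p = 0.479 in limma, 95% confidence interval -0.20 to 0.65).

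Probe set 1423471_at of Ptbp2 carried the whole of that fall. It ran from 5.79 to 6.40 in MBs, with a median of 6.25, and was 8.19 and 8.11 in CGNPs and 8.08 and 8.17 in WC. The MBs lay apart from both normal tissues, which overlapped each other, and the difference was -2.02 against CGNPs (4.07-fold lower, adjusted p = 1.79e-05 in limma on probe sets) and -1.997 against WC (adjusted p = 1.13e-05). Probe set 1423470_at, which is annotated from the same source sequence and had the higher signal, ran from 11.50 to 12.53 in MBs, with a median of 12.17, and was 11.92 and 11.86 in CGNPs and 11.47 and 11.46 in WC. It differed by 0.17 between MBs and CGNPs (adjusted p = 0.763) and by 0.59 between MBs and WC (adjusted p = 0.0664), both upward and neither past the threshold. Taken by the probe set of higher signal, Ptbp2 was therefore not lower in MBs. Which stretch of the transcript each probe set reads was not analysed here.

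**Figure D1:**
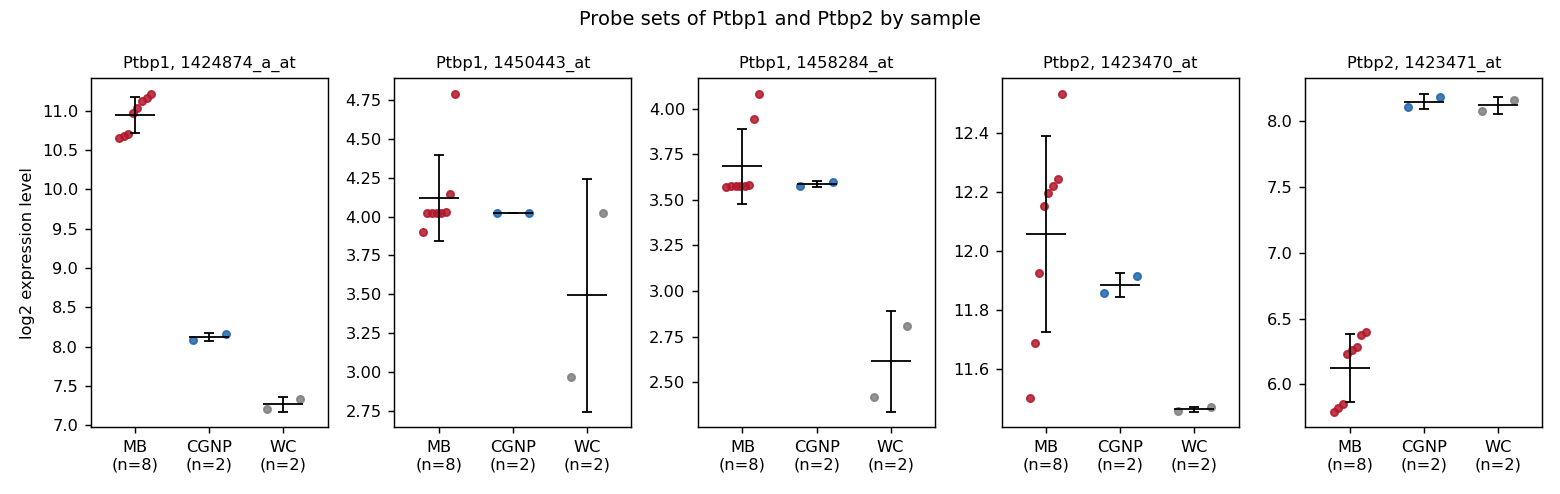
Log2 level of each probe set of Ptbp1 (left 3 panels) and Ptbp2 (right 2 panels) by sample, with 1 point per sample and bars for the mean and SD of MBs (n = 8), CGNPs (n = 2) and WC (n = 2). The y axes differ between panels. The 8 MBs lie above all normal samples for 1424874_a_at of Ptbp1 and below them for 1423471_at of Ptbp2, while for 1423470_at of Ptbp2 they span 11.50 to 12.53 and overlap the CGNPs.

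The balance of Ptbp1 and Ptbp2 was read within each array as the difference of their log2 gene values. The sign of this difference depends on the probes and has no meaning of its own. The size of its change between groups also varies with the probe sets used. It ran from -3.38 to -2.30 in MBs, and was -4.82 and -4.73 in CGNPs and -5.18 and -5.49 in WC. All 8 MBs lay above all 4 normal samples, so the balance stood further toward Ptbp1 in MBs. The shift was 1.93 between MBs and CGNPs and 2.49 between MBs and WC (two-sided exact permutation test, p = 0.0222 for each, the smallest that the 45 arrangements allow, and 0.0296 after adjustment over the 4 comparisons of this value). Against the 4 normal samples together it was 2.21 (exact permutation p = 0.00202, the smallest of 495 arrangements, adjusted 0.00808). CGNPs and WC differed by 0.56, where an exact permutation test of 2 samples against 2 cannot go below p = 0.333.

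The shift toward Ptbp1 was present with either Ptbp2 probe set, although its size differed. With 1424874_a_at of Ptbp1 and the brighter Ptbp2 probe set the balance shifted by 2.65 between MBs and CGNPs and by 3.08 between MBs and WC. These shifts came from Ptbp1 alone. Its probe set rose by 2.82 and 3.67, while the brighter Ptbp2 probe set also moved upward, by 0.17 and 0.59. With the dimmer Ptbp2 probe set, a choice made after the values were seen, the shifts were 4.85 and 5.67, and in all 4 cases the groups did not overlap. The gap between the dimmer and the brighter Ptbp2 probe set, also set up after the values were seen, ran from -6.37 to -5.13 in MBs, and was -3.73 and -3.75 in CGNPs and -3.39 and -3.29 in WC. The MB nearest to the normal samples was MB_706, the tumor with the high ratio of 3' to 5' controls, and the part of RNA integrity in this gap was not tested. Without MB_706 the gene value of Ptbp1 was higher by 0.99 and that of Ptbp2 lower (log2 difference -0.90) in MBs than in CGNPs.

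Across all 10 members, 1 was higher and 5 were lower in MBs than in CGNPs, with 4 not past the threshold. The higher one was Ptbp1, and the lower ones were Ptbp2, Rbfox1, Rbfox2, Elavl3 and Elavl4. Of the 18193 genes tested, 18.7% passed as higher and 18.6% as lower there. Against WC, 3 members were higher and 2 lower in MBs, with a background of 22.2% higher and 21.8% lower. These were Ptbp1, Nova2 and Elavl2 upward and Ptbp2 and Rbfox1 downward. Between CGNPs and WC, 6 members were higher and 1 lower in CGNPs, with a background of 14.9% and 13.6%. Against the 4 normal samples together, 1 member was higher and 3 lower in MBs, with a background of 20% and 16.4%. Ptbp1 was the higher one, and Ptbp2, Rbfox1 (-2.50, adjusted p = 3.21e-04 in limma) and Elavl4 (-1.003, adjusted p = 0.0145) were the lower ones, of which Elavl4 did not pass by its brightest probe set (-0.61, adjusted p = 0.136) or with array weights (adjusted p = 0.0551). The median log2 difference of the members was -0.60 for MBs against CGNPs, 0.13 for MBs against WC and 0.84 for CGNPs against WC, while the median over all genes was 0.00 in each. The comparisons share samples and are given side by side for that reason.

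**Figure D2:**
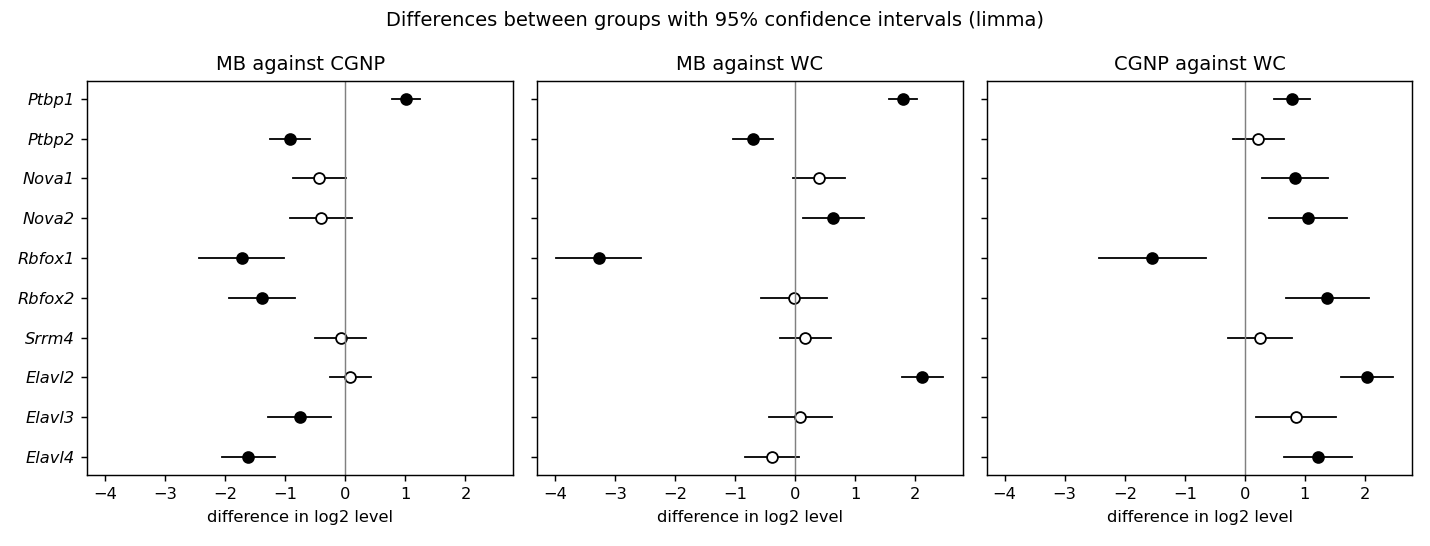
Difference in log2 gene value of the 10 members for MB against CGNP, MB against WC and CGNP against WC, with 95% confidence intervals from limma. Filled points passed an adjusted p of 0.05, and positive values are higher in the group named first. Ptbp1 lies to the right of 0 in all 3 panels, Rbfox1 to the left in all 3, and Rbfox2, Elavl3 and Elavl4 are lower in MB than in CGNP but not past the threshold against WC.

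Rbfox1 and Rbfox2 encode splicing factors that bind the element UGCAUG beside alternative exons of neurons and muscle. Rbfox1 ran from 6.49 to 8.09 in MBs, with a median of 7.35, and was 9.00 and 9.06 in CGNPs and 10.57 and 10.58 in WC. The groups were fully separate, with MBs lowest and WC highest. Rbfox1 was 3.32-fold lower in MBs than in CGNPs (log2 difference -1.73, standard error 0.314, adjusted p = 0.0016 in limma), 9.68-fold lower than in WC (-3.28, adjusted p = 1.55e-05) and lower in CGNPs than in WC (-1.55, adjusted p = 0.0152). Its 3 averaged probe sets fell alike, by -1.57, -1.64 and -1.98 against CGNPs and by -3.31, -2.98 and -3.54 against WC, all past the threshold in limma on probe sets. The MB with the highest Rbfox1 was MB_630. This tumor was also the MB highest in markers of Purkinje cells (6.73), neurons in general (8.41), mature granule neurons (6.85) and inhibitory interneurons (5.99). It was highest as well in markers of oligodendrocytes (5.90), endothelial cells (4.18) and mesenchymal cells (6.41), but not of astroglia or microglia. Without MB_630, Rbfox1 differed by -1.84 from CGNPs and by -3.39 from WC. The difference between CGNPs and WC was lost without any 1 of the 4 normal samples (adjusted p = 0.0596 to 0.0675).

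Rbfox2 was lower in MBs than in CGNPs and stood near WC by its gene value. It ran from 5.27 to 6.45 in MBs, with a median of 5.75, and was 7.25 and 7.09 in CGNPs and 5.72 and 5.87 in WC. MBs lay below the CGNPs and on both sides of the WC samples. The difference was -1.39 against CGNPs (2.62-fold, adjusted p = 0.0013 in limma) and -0.01 against WC (95% confidence interval -0.56 to 0.53), and CGNPs exceeded WC by 1.37 (adjusted p = 0.0077). Its brightest probe set, 1418245_a_at, averaged 8.18 in MBs, 9.78 in CGNPs and 9.18 in WC and was lower in MBs than in WC as well (-0.999, adjusted p = 0.0018 in limma on probe sets), whereas the dimmer 1418246_at and 1434938_at differed by 0.15 and 0.81 there and did not pass. By this probe set, CGNPs and WC differed by 0.61 (adjusted p = 0.107).

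Elavl2, Elavl3 and Elavl4 encode the neuronal Hu proteins HuB, HuC and HuD, which bind U-rich and AU-rich elements, stabilize transcripts and take part in neuronal splicing. Elavl2 ran from 8.22 to 8.88 in MBs, with a median of 8.59, and was 8.65 and 8.36 in CGNPs and 6.46 and 6.48 in WC. MBs and CGNPs overlapped, and both lay far above WC. Elavl2 was 4.34-fold higher in MBs than in WC (log2 difference 2.12, standard error 0.153, adjusted p = 2.09e-06 in limma) and 4.10-fold higher in CGNPs than in WC (2.04, adjusted p = 3.53e-05), while MBs and CGNPs differed by 0.08 (95% confidence interval -0.26 to 0.42, adjusted p = 0.852). All 4 of its probe sets with signal were higher in MBs than in WC, by 2.22 to 3.55, and the fifth, 1433052_at, lay at the floor of the values on all 12 arrays.

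Elavl4, the HuD gene, had its highest level in CGNPs. It ran from 9.33 to 10.18 in MBs, with a median of 9.76, and was 11.33 and 11.28 in CGNPs and 10.11 and 10.05 in WC. MBs lay entirely below CGNPs, and MB_1207 alone lay above both WC samples. Elavl4 was 3.06-fold lower in MBs than in CGNPs (log2 difference -1.62, standard error 0.200, adjusted p = 1.35e-04 in limma), differed by -0.39 between MBs and WC (adjusted p = 0.154) and was higher in CGNPs than in WC (1.23, adjusted p = 0.0048). All 3 probe sets were lower in MBs than in CGNPs, by -2.01, -1.56 and -1.28, but against WC they spread over -0.84 (1428741_at, adjusted p = 0.0082 in limma on probe sets), -0.39 and 0.06.

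Elavl3, the HuC gene, moved in the same direction as Elavl4 between MBs and CGNPs, with a smaller difference. It ran from 8.45 to 9.67 in MBs, with a median of 9.11, and was 9.89 and 9.88 in CGNPs and 9.05 and 9.03 in WC. MBs lay below the CGNPs, 1 of them by only a small margin, and overlapped WC. The difference was -0.76 against CGNPs (adjusted p = 0.0275 in limma) and 0.09 against WC (95% confidence interval -0.44 to 0.61), and CGNPs and WC differed by 0.85 (adjusted p = 0.0594). The call against CGNPs did not hold without CGNP_2698 or CGNP_2705 (adjusted p = 0.135 and 0.132), nor by the brightest probe set alone (-0.50, adjusted p = 0.162).

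Nova1 and Nova2 encode splicing factors of neurons that act on transcripts of synaptic proteins. Nova1 ran from 6.21 to 7.04 in MBs, with a median of 6.66, and was 6.99 and 7.17 in CGNPs and 6.28 and 6.22 in WC. MBs spanned the range between the normal tissues and overlapped both. Nova1 differed by -0.43 between MBs and CGNPs (adjusted p = 0.114 in limma) and by 0.40 between MBs and WC (adjusted p = 0.133), and was higher in CGNPs than in WC by 0.83 (adjusted p = 0.0297), a call that did not hold without any 1 of the 4 normal samples (adjusted p = 0.0694 to 0.142). Its 2 probe sets disagreed. The bright 1426938_at averaged 10.01 in MBs, 9.87 in CGNPs and 9.03 in WC and was higher in MBs than in WC (0.98, adjusted p = 0.0058 in limma on probe sets), whereas the dim 1452245_at averaged 3.29, 4.29 and 3.47 in MBs, CGNPs and WC and was lower in MBs than in CGNPs (-1.002, adjusted p = 0.0224).

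Nova2 ran from 4.35 to 5.24 in MBs, with a median of 4.57, and was 5.22 and 4.94 in CGNPs and 4.12 and 3.94 in WC. MBs overlapped the CGNPs and lay above both WC samples. The difference was -0.41 against CGNPs (adjusted p = 0.208 in limma) and 0.64 against WC (adjusted p = 0.0463), with an adjusted p of 0.0238 to 0.256 against WC over the alternatives tried, and CGNPs exceeded WC by 1.05 (adjusted p = 0.0218). The call between CGNPs and WC did not hold without CGNP_2698, WC_2646 or WC_2647 (adjusted p = 0.122, 0.0606 and 0.108). Its probe set 1439099_at lay at the floor on all 12 arrays, which narrows the differences of the gene value. The other probe set, 1439192_at, averaged 7.14 in MBs, 7.96 in CGNPs and 5.86 in WC (adjusted p = 0.0535 for MBs against WC in limma on probe sets).

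Srrm4 encodes a factor that promotes the inclusion of neuronal microexons and acts on the transcript of the repressor Rest. It ran from 5.24 to 5.99 in MBs, with a median of 5.72, and was 5.83 and 5.66 in CGNPs and 5.54 and 5.45 in WC. By gene value MBs overlapped both normal tissues, and no comparison passed the threshold. The difference was -0.08 against CGNPs (95% confidence interval -0.50 to 0.34) and 0.17 against WC (95% confidence interval -0.25 to 0.60). Its bright probe set, 1435062_at, ran from 7.91 to 8.40 in MBs and was 8.39 and 8.03 in CGNPs and 7.82 and 7.66 in WC. By this probe set the MBs lay above both WC samples (0.39, adjusted p = 0.0679 in limma on probe sets). The dim 1425774_at averaged 3.21, 3.28 and 3.25 in MBs, CGNPs and WC. A probe set with the suffix x, 1438523_x_at, left out of the gene value because such probes can read other transcripts, was lower in MBs than in CGNPs (-0.74, adjusted p = 5.50e-04 in limma on probe sets) and than in WC (-0.48, adjusted p = 0.0058).

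**Figure D3:**
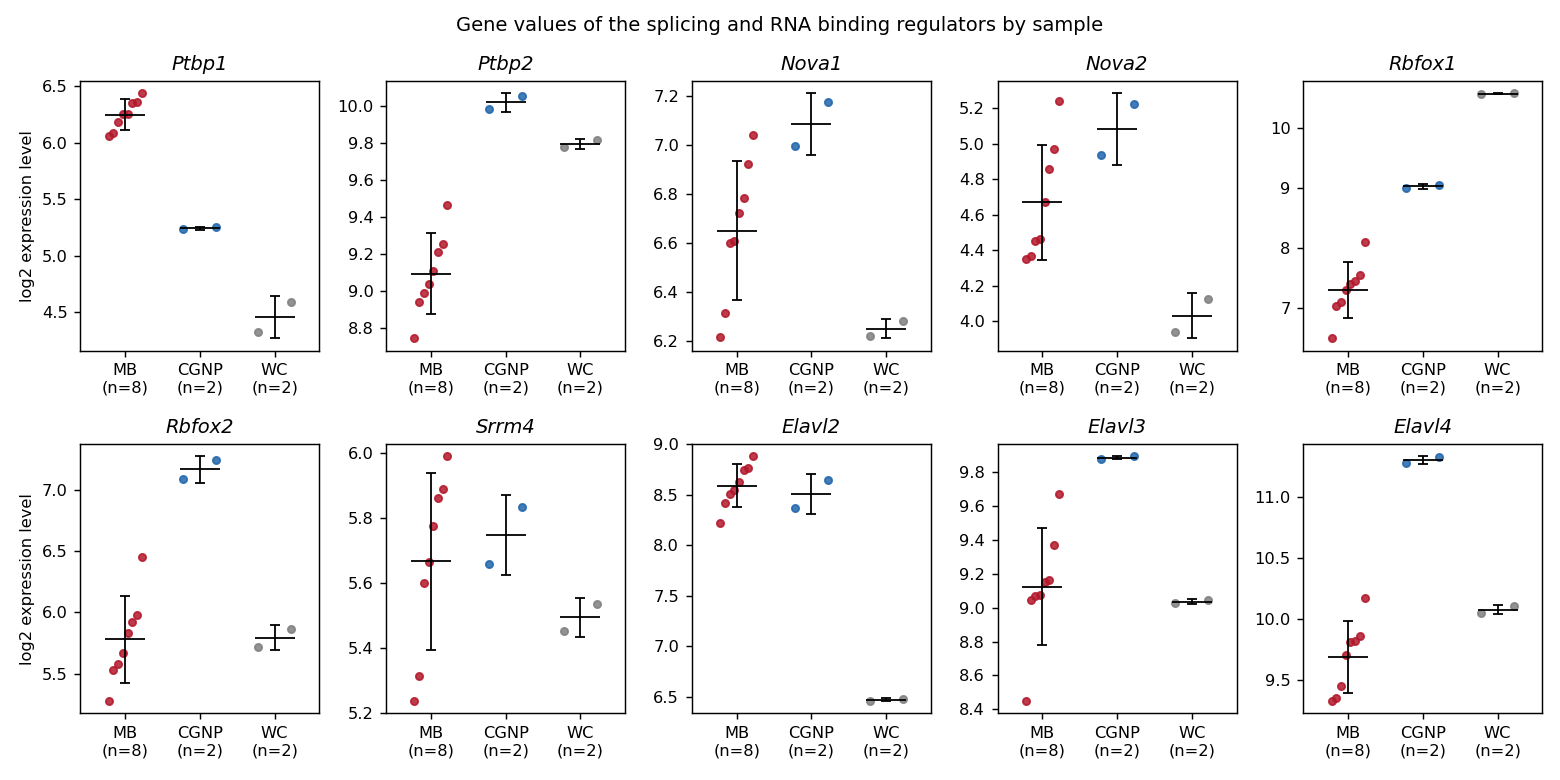
Log2 gene value of each member by sample, with 1 point per sample and bars for the mean and SD of MBs (n = 8), CGNPs (n = 2) and WC (n = 2). The y axes differ between panels and do not start at 0. MBs, CGNPs and WC are separate for Ptbp1 and Rbfox1, whereas MBs overlap both normal tissues for Nova1 and Srrm4.

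Counted by probe sets, 1 of the 31 was higher and 13 were lower in MBs than in CGNPs, against a background of 16.4% higher and 15.5% lower over all probe sets. The single higher one was 1424874_a_at of Ptbp1. Against WC, 7 were higher and 8 lower in MBs, with a background of 19% and 18.2%. Probe sets of 1 gene share a transcript and are no independent count. Markers of neurons in general moved with the lower members, since 8 of 9 were lower in MBs than in CGNPs (median log2 difference -2.82). Markers of dividing cells moved with Ptbp1, since 7 of 7 were higher (median 3.41). Other marker lists moved as well. Markers of granule progenitors (8 of 8, median 3.23) and of microglia (8 of 10, median 2.66) were higher in MBs than in CGNPs. Mesenchymal markers (6 of 6, median -3.49) and markers of inhibitory interneurons (3 of 4, median -1.52) were lower. Over all genes, 18.6% were lower and 18.7% higher there. The part of these markers in the results was not tested.

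**Figure D4:**
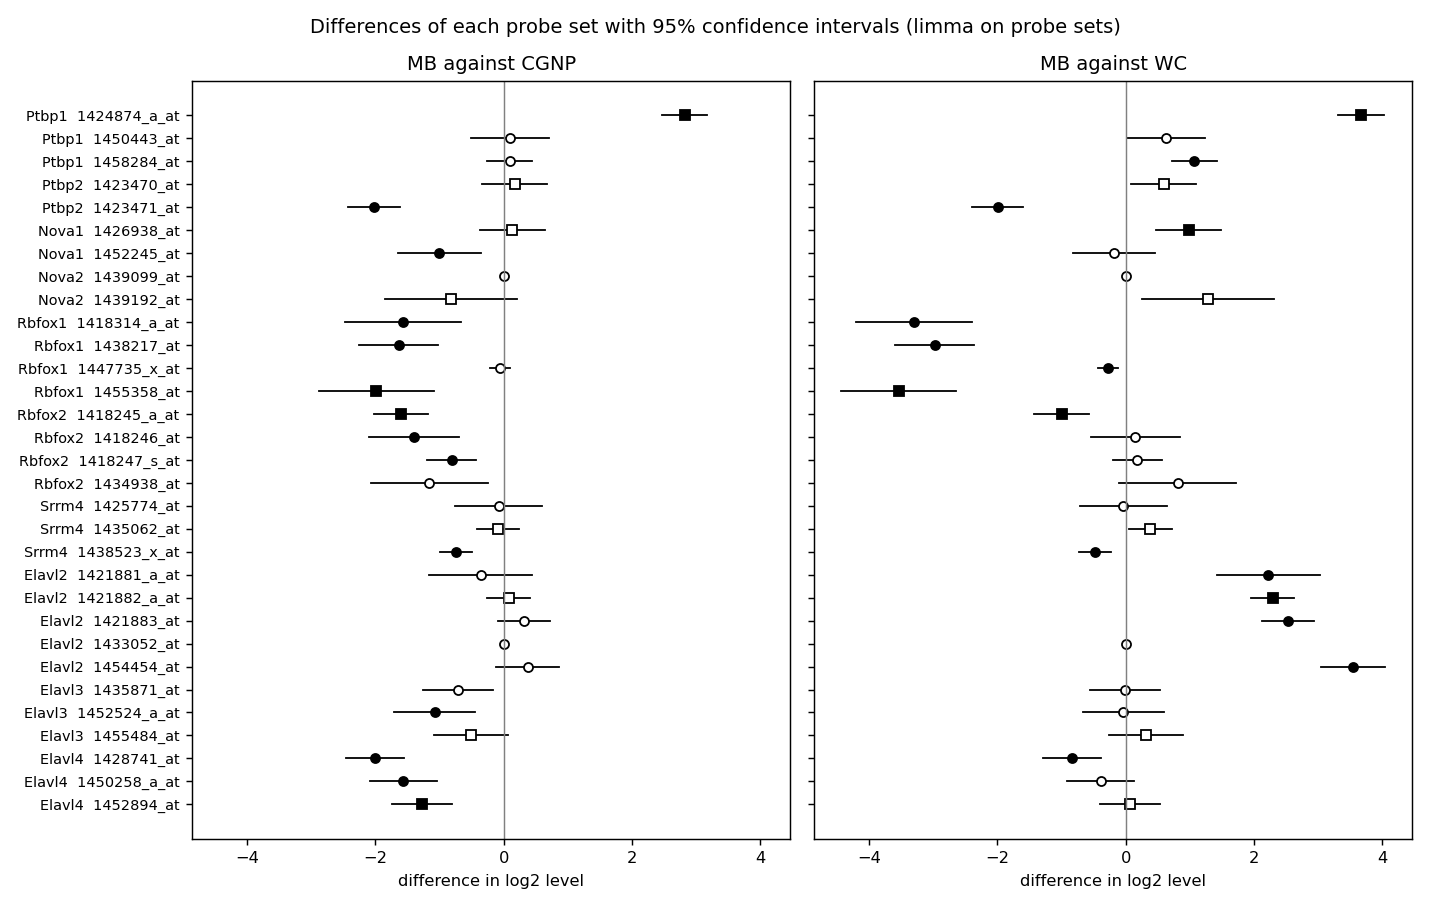
Difference in log2 level of each member probe set for MB against CGNP (left) and MB against WC (right), with 95% confidence intervals from limma on probe sets. Filled symbols passed an adjusted p of 0.05, squares mark the brightest probe set of each gene, and positive values are higher in MB. The 2 probe sets of Ptbp2 lie on opposite sides of 0 in both panels, while those of Rbfox1 that were averaged all lie to the left.

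Among the 8 MBs the SD of the gene values ran from 0.13 for Ptbp1 to 0.46 for Rbfox1. Single bright probe sets varied more than the mean over probe sets. The SD was 0.23 for 1424874_a_at of Ptbp1, and 0.65 for 1439192_at of Nova2 against 0.32 for the gene value of Nova2. Tumor MB_1224 had the highest Ptbp1 of the MBs (6.44) together with the lowest Ptbp2 (8.74), Rbfox1 (6.49) and Elavl3 (8.45). Tumor MB_1207 had the highest value of all 3 neuronal Elavl genes (8.88, 9.67 and 10.18 for Elavl2, Elavl3 and Elavl4). Tumor MB_794 had the lowest Nova2, Srrm4 and Elavl4 (4.35, 5.24 and 9.33), and MB_706 had the highest Nova2 and Srrm4 (5.24 and 5.99). The low Srrm4 of MB_794 was that of the dim probe set 1425774_at (2.35). By the bright 1435062_at, MB_794 was at 8.12 and the lowest MB was MB_1197 (7.91). With 10 members spread over 8 tumors, such places are a description of these arrays.

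Relatives of the members outside the 10 did not all follow their families. Of 4 relatives, 3 were higher in MBs than in CGNPs, where 18.7% of all genes passed as higher. Srrm3 differed by 0.71 (adjusted p = 0.359 in limma). Ptbp3 averaged 6.51 in MBs, 5.64 in CGNPs and 3.87 in WC (0.87 for MBs against CGNPs, adjusted p = 0.0101 in limma, and 2.63 against WC, adjusted p = 5.58e-06). Elavl1, which encodes the ubiquitous Hu protein HuR, averaged 7.52, 6.72 and 6.07 in MBs, CGNPs and WC (0.80 for MBs against CGNPs, adjusted p = 0.0036). Rbfox3, which encodes the neuronal marker NeuN, averaged 9.53 in MBs, 8.78 in CGNPs and 11.05 in WC, so that it was higher in MBs than in CGNPs (0.75, adjusted p = 0.0029) and lower than in WC (-1.52, adjusted p = 1.94e-05).

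Of 16 other splicing regulators of the brain, 4 were higher and 7 lower in MBs than in CGNPs, with a background of 18.7% and 18.6%. Khdrbs2, which encodes the neuronal STAR protein SLM1, averaged 3.23 in MBs, 8.02 in CGNPs and 5.12 in WC (-4.79 for MBs against CGNPs, adjusted p = 2.04e-05 in limma). Celf6, a CELF family member, averaged 5.81, 8.90 and 4.39 in MBs, CGNPs and WC (-3.09 for MBs against CGNPs, adjusted p = 1.73e-04), and so was higher in MBs than in WC (1.42, adjusted p = 0.0149). Among those higher in MBs were Mbnl3, a muscleblind family member (1.51, adjusted p = 0.0047), and Raver1, which encodes a partner of PTBP1 in splicing repression (1.18, adjusted p = 0.0088). Both were dim, with Mbnl3 at 5.61, 4.10 and 2.63 and Raver1 at 4.80, 3.62 and 3.42 in MBs, CGNPs and WC. Against WC, 7 of the 16 were higher and 3 lower in MBs, with a background of 22.2% and 21.8%.

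General splicing factors stood mostly higher in MBs. Of 22 hnRNP and SR proteins, 13 were higher in MBs than in CGNPs and 9 did not pass, with a background of 18.7% higher. Against WC, 18 were higher and 1 lower in MBs, with a background of 22.2% and 21.8%. Hnrnpa1, which opposes SR proteins at splice sites, averaged 8.36 in MBs, 7.10 in CGNPs and 7.66 in WC (1.26 for MBs against CGNPs, adjusted p = 0.0084 in limma), and Hnrnpa2b1 averaged 12.87, 11.77 and 11.96 in MBs, CGNPs and WC (1.09, adjusted p = 0.0011). Of 8 genes of the REST corepressor complex, which silences neuronal genes outside neurons, 5 were higher in MBs than in CGNPs and 3 did not pass. Against WC, 7 were higher in MBs, and the same background of 18.7% and 22.2% higher applies to these 2 comparisons. Rcor2, a corepressor of the complex, averaged 8.94 in MBs, 5.81 in CGNPs and 2.88 in WC (3.13 for MBs against CGNPs, adjusted p = 1.07e-05) and Sin3a averaged 7.12, 5.30 and 4.78 in MBs, CGNPs and WC (1.83, adjusted p = 0.0016). Rest itself was low, at 4.06 in MBs, 3.83 in CGNPs and 3.63 in WC, and did not pass between MBs and CGNPs (0.22, adjusted p = 0.324). It is among the 7 higher in MBs than in WC, close to the threshold and with overlapping groups (0.42, adjusted p = 0.0488 in limma).

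Of 14 RNA binding proteins of mRNA transport and translation, 3 were higher and 4 lower in MBs than in CGNPs, with a background of 18.7% and 18.6%. Cpeb2 and Cpeb3, which encode binders of cytoplasmic polyadenylation elements, were lower (-3.15, adjusted p = 1.45e-06, and -1.48, adjusted p = 1.31e-04, in limma). Fxr1, a relative of the fragile X protein gene, and Syncrip were higher (1.07, adjusted p = 2.34e-05, and 0.79, adjusted p = 4.22e-04).

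For each member the gene of most similar pattern was found by the smallest root mean square difference of the 12 log2 values, after each gene was centred on its mean. The nearest gene was Rpl27, a gene of the large ribosomal subunit, for Ptbp1 (0.0995 log2 units), Cd99l2 for Ptbp2 (0.148), Cbln1, a gene for a synaptic organizer secreted by granule neurons, for Rbfox1 (0.261) and Zfp768 for Rbfox2 (0.215). It was Phax for Nova1 (0.157), Ube2d1 for Nova2 (0.152) and Zfat for Srrm4 (0.133). For the Elavl genes it was Msantd3 for Elavl2 (0.167), Tfrc for Elavl3 (0.151) and Mtch1 for Elavl4 (0.186). The distances are smaller for members that vary little, such as Srrm4, with an SD of 0.22 over the 12 samples, than for Rbfox1, with an SD of 1.31. Cbln1 itself averaged 10.08 in MBs, 11.94 in CGNPs and 13.17 in WC.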

How the data were processed

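Affymetrix mouse expression arrays of 8 MBs, 2 CGNP and 2 WC samples were analysed, each sample from 1 mouse. The authors processed the CEL files with the R library affy and GCRMA (versions not given in the sources used here), and the deposited values are log2 levels per probe set with a floor of 2.20. GCRMA adjusts for probe affinity and normalizes between arrays, so a global shift in RNA content would not be seen. Precision is limited by how few arrays there were.

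Of 45101 probe sets, 64 array controls were dropped. The probe table gave 1 gene for 34945, several for 932 and no gene for 9160. Values were averaged per gene over probe sets of 1 gene without the suffixes s or x (290 genes had none and kept the others).

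Tests were two-sided in limma 3.58.1 under R 4.3.3 (lmFit, eBayes, Benjamini-Hochberg over all 18193 genes, threshold 0.05), with 3 groups in 1 fit and with MBs against the 4 normal samples in another. Scripts were tested on simulated data. The balance of Ptbp1 and Ptbp2 was compared by exact permutation over all arrangements of the samples, with numpy 2.4.6. Alternatives were the brightest probe set, all single-gene probe sets, extra quantile normalization, arrays shifted to the same median, genes above a log2 level of 5 in at least 2 samples, trend and robust estimates, array weights, the methods' t-test before and after adjustment, and omission of each sample. The fit on probe sets and the balance with the dimmer Ptbp2 probe set were added after seeing the data.

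Members, gene lists and markers were chosen with earlier results of these data known. The text names all members, each member's nearest gene (predicted and Riken genes left out) and, from each other list, up to 2 genes each way that passed with the widest difference between MBs and CGNPs. Rbfox3, Srrm3, Rest, Atoh1 and the values of Cbln1 were added after they were seen. Figures were drawn in matplotlib 3.10.9.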

Additional observations from a re-analysis of the deposited data

Results flagged for a closer look

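Of 32 member values tested for an outlier among the 8 MBs, 2 had one, and chance flags about 1 in 20 such groups. Probe set 1426938_at of Nova1 was 9.25 in MB_1207, where the remaining 7 MBs spanned 9.88 to 10.20. Probe set 1421881_a_at of Elavl2 was 7.87 in MB_706, where the remaining MBs spanned 8.91 to 9.49. MB_706 is also the tumor with the high ratio of 3' to 5' controls, whose part in that value was not tested.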

How the results depend on the processing

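The calls of Ptbp1 in MBs against CGNPs, WC and normal brain, of Rbfox1 in the same comparisons, and of Rbfox2 and Elavl4 in MBs against CGNPs kept their direction and side of the threshold under all 9 alternatives and all 12 left-out samples. With the brightest probe set in place of the mean, Ptbp2 turned to 0.17 against CGNPs, 0.59 against WC and 0.38 against normal brain (adjusted p 0.705, 0.0566 and 0.134), Nova1 to 0.13 against CGNPs and 0.56 against normal brain, and Elavl4 to 0.0603 against WC. The cause was not tested. With all single-gene probe sets, Rbfox2 turned to 0.0345 and Srrm4 to -0.0463 against WC, and Srrm4 to -0.17 against normal brain. Srrm4 against normal brain also turned with arrays shifted to the same median (-0.0035) and with array weights (-0.0294), as did, with array weights, Rbfox2 against WC (0.0086) and Nova1 against normal brain (0.17).

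Leaving out 1 sample at a time, the range was -0.17 to 0.0069 for Srrm4 and -0.061 to 0.225 for Elavl2 in MBs against CGNPs, -0.109 to 0.0587 for Rbfox2 against WC, and -0.17 to 0.15 for Nova1, -0.0904 to 0.337 for Nova2 and -0.0105 to 0.117 for Srrm4 against normal brain. None of these was past the threshold in the first place. By the methods' t-test after adjustment, the calls of Ptbp1, Nova1 and Nova2 between CGNPs and WC did not pass (adjusted p 0.101, 0.0675 and 0.0964). Before adjustment, that t-test called 9 members between CGNPs and WC, in place of 7. With the brightest probe set, 4 members in place of 6 were called for MBs against CGNPs, 6 in place of 5 against WC and 3 in place of 4 against normal brain. Newly called against WC were Nova1 (0.98, adjusted p = 0.00465 in limma) and Rbfox2 (-0.999, adjusted p = 0.00143), while Ptbp2 was lost. Against normal brain Rbfox2 was newly called (-1.30, adjusted p = 1.77e-04 in limma), while Ptbp2 and Elavl4 were lost. The ranges that follow come from leaving out 1 sample at a time. The number of members called was 5 to 6 for MBs against CGNPs, 4 to 6 against WC, 4 to 5 against normal brain, and 4 to 8 for CGNPs against WC, where it was 4, in place of 7, without CGNP_2698, WC_2646 or WC_2647. The balance of Ptbp1 and Ptbp2 shifted by 1.85 to 2.01 against CGNPs and by 2.34 to 2.65 against WC, and where only 1 CGNP or 1 WC sample was left the exact permutation p was 0.111, the smallest that 9 arrangements allow.

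No paired analysis was possible because each number in the labels names 1 mouse and no number is shared between groups. With 2 samples in each normal tissue the spread rests mainly on the MBs, and dim probe sets near the floor give no measure of a fall.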
